A study of Mus musculus with 6 samples.

Results

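RNA from cells labelled as Tet3-induced neurons at 5 dpi was compared with RNA from the mouse embryonic fibroblasts (MEF) they came from, on 1 single-colour Agilent array each. A probe was kept where the scanner software marked it as well above background on at least 1 of these 2 arrays. This left 33590 of 39429 probes. By name they gave a difference for 18321 of 20655 genes, of which 16558 were measured on both arrays. For the other 1763 genes the signal was well above background on 1 array, and the difference is a lower bound, written as "at least". The fibroblasts were taken from E13.5 embryos of the ICR stock, and they are a mixed outgrowth, not a clone. The 5 dpi cells were the same kind of fibroblast, given adenoviral supernatants with polybrene on 2 days and then intermediate medium with 5% serum. On day 3 and on day 5 after the second infection, part of that medium was replaced with neuronal medium containing forskolin at 20 µM. The sources used here do not give the order of sampling and replacement on day 5. The other 4 arrays held treated cells at 1, 3 and 7 dpi and primary embryonic neurons, and their levels are given beside those of MEF and 5 dpi.

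No group received virus without Tet3, so virus, Tet3 and the change of medium cannot be told apart. Each group had 1 array. No test could be made, and every difference describes a pair of arrays. MEF and 1 dpi were read in 1 scan, and 3 dpi, 5 dpi, 7 dpi and neurons in another, so scan and group cannot be told apart between MEF and 5 dpi. In RNA from a whole culture, fewer cells of a type and less RNA in each cell cannot be told apart either.

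Tet3 belongs to a family of dioxygenases that oxidise 5-methylcytosine in DNA, an early step in the removal of methylation. Fibroblasts make collagen-rich matrix and can take up a contractile programme, and fibroblast cultures from whole embryos often carry tissue macrophages. Neurons are recognised by neurofilaments, microtubule proteins of growing axons, secreted peptides, synaptic vesicle proteins and the transcription factors that specify them. Forskolin activates adenylyl cyclase, and cyclic AMP then acts on genes through the CREB family of transcription factors.

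Levels are the log2 values of the deposited table, where 0 is the 75th percentile of the array. A level compares arrays for the same probe and does not rank different genes. On each of the 6 arrays the share of probes well above background was between 72.9% and 86.1%, and no spot was saturated. The share was 75.5% for MEF and 84.3% for 5 dpi. Of the 1763 genes with a bound, 1580 had it in the higher direction and 183 in the lower. At a threshold of 2-fold, 3283 genes (17.9% of those with a difference) had a higher level at 5 dpi and 1505 (8.21%) a lower one. Higher genes thus made up 68.6% of the called genes, but 45.8% after quantile normalization, 40.1% after centring on the median, 58.3% with normexp background correction and 41.8% among brighter genes. The median over all genes with a difference was 0.20, and it was 0.147 over genes measured on both arrays. The 54 control probes of the array, at a median level of -8.11 in MEF and -6.29 at 5 dpi, had a median difference of 0.56, and 17 of them were at least 2-fold higher and 1 was lower. Of these control probes, 2 reached a level of -4 on either array. Genes that reached -4 on at least 1 of the 2 arrays are called clear genes here, a rule added after the data were seen. Among 14699 clear genes, 14.5% were higher and 9.33% lower. The error model of the scanner software gave a median of 0.20 for a log2 difference, and this covers the array alone.

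Tet3 itself was measured by 3 probes. On the brightest of them its level was -0.22 in MEF, 1.13 at 1 dpi, 1.74 at 3 dpi, 2.57 at 5 dpi, 0.07 at 7 dpi and -0.72 in neurons. The signal at 5 dpi was the highest of the 6 arrays for this probe and 6.94-fold that of MEF. A second probe for Tet3, not well above background in MEF, stood at 0.26 at 5 dpi, at least 116.3-fold higher, while the remaining probe was at 1.278-fold. Since the signal at 7 dpi had returned close to that of MEF on both responding probes, that sample is called the array labelled 7 dpi. Tet1 was 4.31-fold higher at 5 dpi on its brighter probe (levels -1.49 and 0.62) and 1.275-fold of MEF on the other, and Tet2 was within 2-fold on both of its probes. Among other genes of DNA methylation, Dnmt3a, a de novo methyltransferase, was 2.89-fold lower, and Dnmt3l, its catalytically inactive partner, was 2.65-fold higher. Dnmt1, the maintenance enzyme, was at 1.25-fold of MEF.

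Marker genes of cell types gave a mixed account of the label. Among 10 neuron markers 7 passed 2-fold upward at 5 dpi and 0 downward, and the median difference was 1.54. Their summed linear level was 4.07 in MEF, 8.48 at 1 dpi, 15.0 at 3 dpi, 10.3 at 5 dpi, 19.8 at 7 dpi and 87.1 in primary neurons. Bright probes weigh most in such a sum, and its fall from 3 to 5 dpi was not seen in the medians. Set against MEF, these were 0.35 (1 dpi), 1.43 (3 dpi), 1.54 (5 dpi), 3.01 (7 dpi) and 5.08 (primary neurons). The medians for 1 and 3 dpi rest on 9 of the 10 markers. All 10 fibroblast markers were within 2-fold of MEF, with a median of 0.13, and their summed linear level was 519.6 in MEF, 579.8 at 5 dpi and 32.4 in neurons. The RNA labelled as induced neurons therefore still held the fibroblast markers at the level of MEF, and its neuron markers lay below those of primary neurons. All 9 macrophage markers with a value were lower, with a median of -6.29. Skeletal muscle markers had 3 of 5 members higher at 5 dpi and 0 lower, with a median of 1.32. Epithelial, endothelial, Schwann, erythroid, hepatocyte and astrocyte markers, with 3 to 6 differences each, had 1 or 2 higher and 0 to 2 lower.

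**Figure D1:**
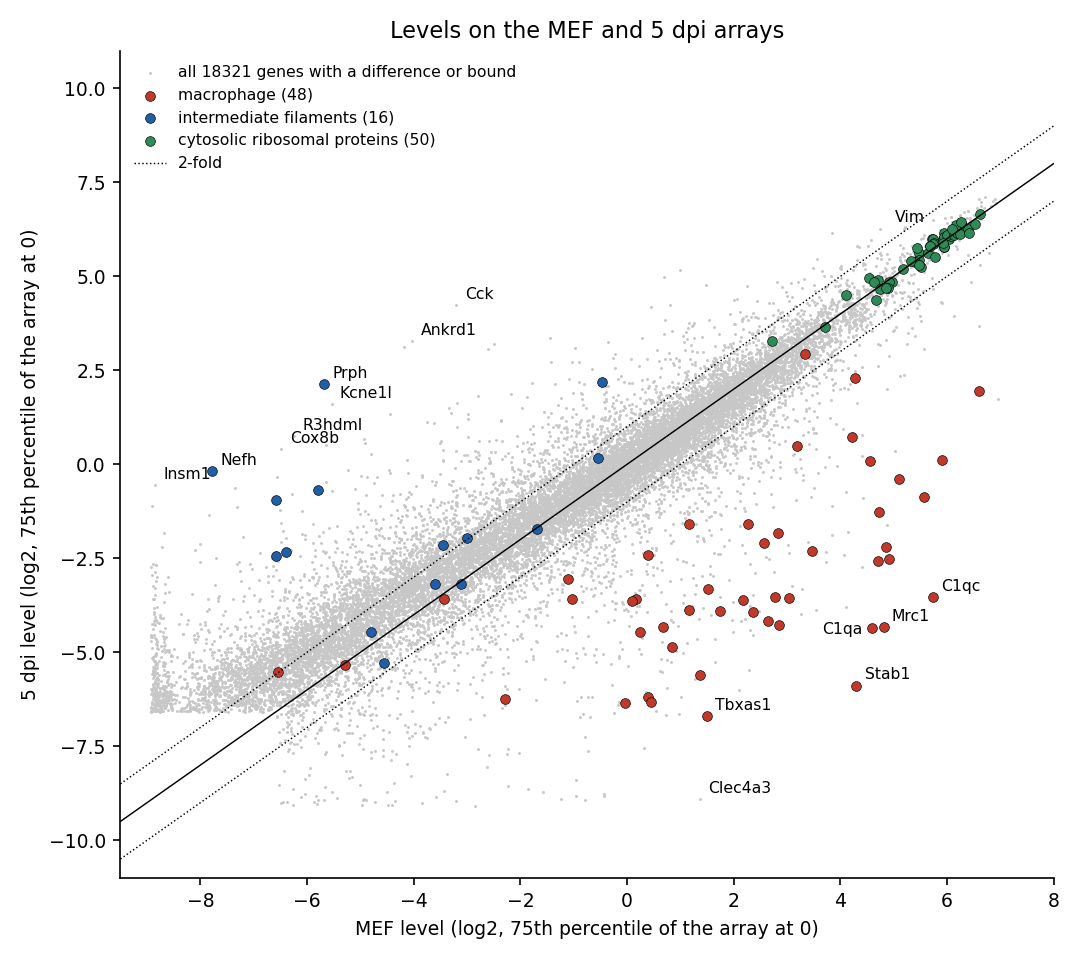
Level in MEF (horizontal axis) against level at 5 dpi (vertical axis), log2 with the 75th percentile of each array at 0, 1 point for each of 18321 genes. 44 of 48 macrophage genes (red) lie below the lower 2-fold line, 9 of 16 intermediate filament genes (blue) lie above the upper 2-fold line, and cytosolic ribosomal protein genes (green) lie within the 2-fold lines.

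Intermediate filament genes held the furthest gene in the higher direction. Prph encodes peripherin, a filament of peripheral and some central neurons. Its level was -5.68 in MEF, -4.49 at 1 dpi, -4.29 at 3 dpi, 2.14 at 5 dpi, 0.67 at 7 dpi and -2.28 in neurons. The 5 dpi array was the highest of the 6, 225.9-fold above MEF and 86.2-fold above 3 dpi in the same scan. The 3 neurofilament subunits were far above MEF as well. Nefl, the light subunit, stood at -5.80 in MEF, -5.05 at 1 dpi, -4.37 at 3 dpi, -0.68 at 5 dpi, -0.22 at 7 dpi and 1.35 in neurons, a difference of 34.8-fold between 5 dpi and MEF. Nefh, the heavy subunit, was not well above background before 5 dpi, where its level was -0.18, at least 85.4-fold higher than in MEF. On 7 dpi it was at 1.40 and in neurons at -2.10. The array error of the Nefh difference was 0.77 on the log2 scale, since the MEF spot was near background. Nefm, the medium subunit, was at least 50.1-fold higher, although a spot of its probe was marked as an outlier on 1 of the arrays.

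Of the 16 intermediate filament genes, 9 passed 2-fold upward and 0 downward. Their median was 1.18 against 0.20 for all genes, and 9 of 14 clear members were higher. Nes, the nestin filament of neural progenitors and other immature cells, was 6.30-fold higher, with levels of -0.47 in MEF, 1.25 at 3 dpi, 2.19 at 5 dpi and 0.52 at 7 dpi. Not all of these genes are neuronal. Desmin (Des), the filament of muscle, was at least 16.5-fold higher, with an outlier spot, and the simple epithelial keratin Krt8 was at least 17.8-fold higher. Vim, the vimentin filament of mesenchymal cells, was at 1.21-fold of MEF, and Gfap, the astrocyte filament, was at 1.27-fold near the level of the control probes. Ina, the alpha-internexin of central neurons, was at 1.66-fold.

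Of 25 genes of the neuronal cytoskeleton and growth cone, 13 were higher and 2 lower, with a median of 1.04. Bex1, a small adaptor of neurotrophin signalling, stood apart from the others at 52.5-fold. Its level was -2.50 in MEF, -1.32 at 1 dpi, -2.33 at 3 dpi, 3.21 at 5 dpi, 2.37 at 7 dpi and 1.95 in neurons, so the 5 dpi level was the highest of the 6. Tubb3, the neuronal beta tubulin, stood at -0.85 in MEF, -0.50 at 1 dpi, 0.81 at 3 dpi, 1.74 at 5 dpi, 2.46 at 7 dpi and 4.09 in neurons. At 5 dpi it was 6.0-fold above MEF and at 0.195-fold of neurons. The stathmins Stmn2, Stmn3 and Stmn4, which bind tubulin dimers, were 6.58-fold, at least 6.39-fold and 6.70-fold higher, and the ubiquitin hydrolase Uchl1 was 6.06-fold higher.

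Several microtubule genes that mark neurons were still far below primary neurons at 5 dpi. Dcx, doublecortin of migrating neurons, stood at -5.27 in MEF, -3.41 at 5 dpi, -0.17 at 7 dpi and 2.14 in neurons. This was 3.63-fold above MEF and at 0.0213-fold of neurons, and its other probes gave log2 differences from MEF of 0.65 to 1.03. Mapt, the axonal protein tau, was 4.25-fold above MEF and at 0.0116-fold of neurons. Map2, a dendritic microtubule protein, was at 1.68-fold of MEF, and Gap43, a growth cone protein, was at 0.703-fold. In the other direction, the collapsin response mediator Dpysl5 was 2.53-fold lower and the doublecortin-like kinase Dclk1 2.46-fold lower, just under 2-fold as a mean over probes.

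Among 26 neuropeptide genes, 12 were higher and 2 lower, with a median of 0.77 (1.39 over 17 clear members, of which 10 were higher and 1 lower). Cck encodes cholecystokinin, a peptide of gut endocrine cells and many neurons. Its level was -3.20 in MEF, -1.08 at 1 dpi, 1.08 at 3 dpi, 4.23 at 5 dpi, 1.92 at 7 dpi and 2.68 in neurons, which put 5 dpi 171.9-fold above MEF and 2.93-fold above neurons. Vip, the vasoactive intestinal peptide, was not well above background in MEF and at -1.36 at 5 dpi, at least 37.9-fold higher and 7.53-fold above the array labelled 7 dpi. Gal, galanin, took another course, with -1.14 in MEF, 1.15 at 5 dpi and 3.76 at 7 dpi, and was 4.89-fold above MEF at 5 dpi. Nts, neurotensin, was at least 16.7-fold higher. The enkephalin precursor Penk, which fibroblasts of the embryo also make, was 3.40-fold higher. Npy was at 1.63-fold of MEF, and Sst was at 1.57-fold with an outlier spot near the level of the control probes.

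Granins are acidic proteins of the dense-core vesicles that store peptides, and prohormone convertases cut the peptide precursors. Of 16 such genes, 9 were higher and 2 lower, with a median of 1.17. Vgf, a granin-like protein, was 8.14-fold higher (levels -4.17 in MEF, -1.34 at 3 dpi, -1.14 at 5 dpi and 2.22 at 7 dpi). Chga, chromogranin A, was 4.72-fold higher, and Scg5, a chaperone of the convertase Pcsk2, was 7.04-fold higher. Ptprn, a membrane protein of dense-core vesicles, was 9.43-fold higher. Secretogranin II (Scg2) differed from them, at -1.28 in MEF, -1.93 at 1 dpi, -5.14 at 3 dpi, -3.62 at 5 dpi, 0.99 at 7 dpi and 1.37 in neurons. It was 5.08-fold lower at 5 dpi than in MEF. At 5 dpi Chga, Vgf and Scg2 were at 0.0796-fold, 0.0969-fold and 0.0408-fold of the array labelled 7 dpi, so none of these 3 had its highest level at 5 dpi.

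**Figure D2:**
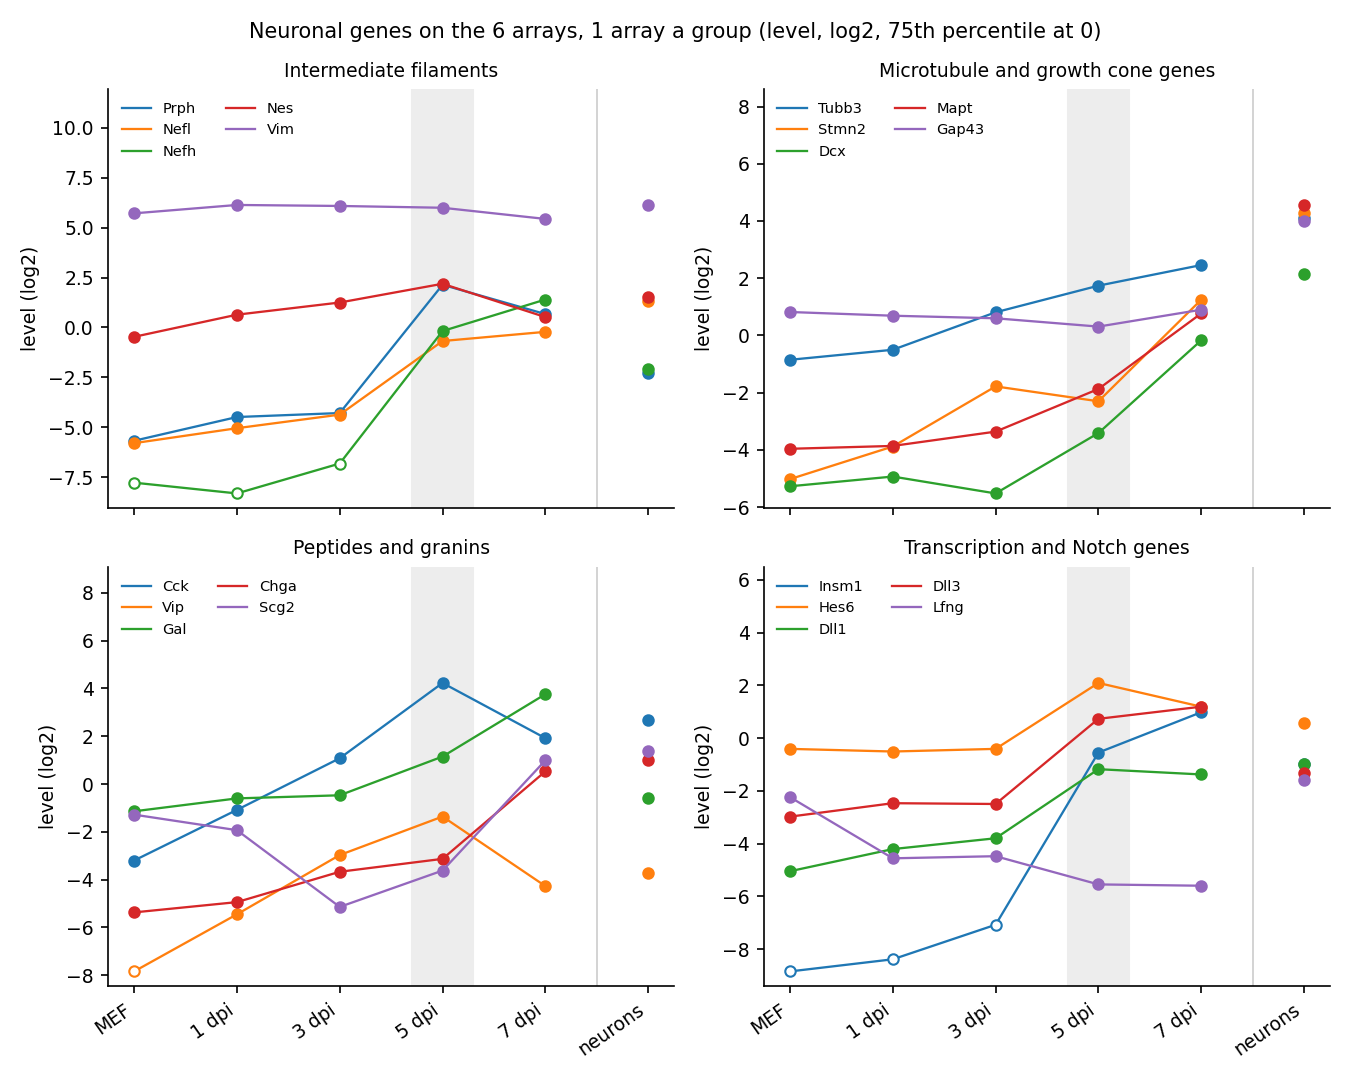
Levels (vertical axis, log2 with the 75th percentile of each array at 0) of neuronal genes on the 6 arrays (horizontal axis), 1 array a group, with 5 dpi shaded and open circles where the probe was not well above background. Prph and Cck are highest at 5 dpi, Insm1 and Nefh pass from background to clear signal between 3 and 5 dpi, and Mapt and Dcx at 5 dpi remain below neurons.

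Of 39 transcription factors of neuronal commitment, 19 were higher, 3 were lower and 17 were within 2-fold. Their median was 0.96, 0.55 after quantile normalization and 0.11 among brighter genes, and of the 23 clear ones 12 were higher and 2 lower. Insm1, a zinc finger factor of neuronal and endocrine progenitors, was not well above background in MEF, at 1 dpi or at 3 dpi. It stood at -0.55 at 5 dpi, 0.98 at 7 dpi and -1.0 in neurons. The difference from MEF was at least 66.3-fold, with an array error of 1.45 on the log2 scale, and the difference from 3 dpi in the same scan was at least 78.6-fold. Hes6, which opposes Hes1 and favours neuronal differentiation, was 5.65-fold higher, with levels of -0.41 in MEF, -0.51 at 1 dpi, -0.41 at 3 dpi, 2.09 at 5 dpi and 1.19 at 7 dpi.

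The proneural basic helix-loop-helix genes were dim. Neurog1 was 3.43-fold higher (levels -4.86 and -3.09) and Neurog2 2.55-fold higher (levels -5.08 and -3.72). Neurog2 was under 2-fold with normexp correction, quantile normalization or median centring. Among factors of later identity, Gata3, which serves sympathetic and other neurons as well as T cells and trophoblast, was 11.9-fold higher. Its partner Gata2 was 8.12-fold higher. Their levels at 5 dpi, 0.11 for Gata3 and -2.13 for Gata2, were the highest of the 6 arrays for each gene. Dlx2, a forebrain interneuron factor, was at least 8.77-fold higher, the motor neuron factor Isl2 was 4.47-fold higher, and Pou4f1, a factor of sensory neurons, was 3.24-fold higher. Sox11, a factor of immature neurons, was 3.35-fold higher. Ebf3 was 3.58-fold lower and St18, a zinc finger factor, 4.44-fold lower at levels near those of the control probes and under 2-fold with normexp correction. Myt1l, a factor used in other fibroblast-to-neuron protocols, was not well above background at 5 dpi, and its level at 7 dpi was -2.88.

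Notch signalling holds neural progenitors in an undifferentiated state, and cells that commit to the neuronal fate display Delta ligands. Of 23 Notch pathway genes, 10 were higher and 2 lower, with a median of 0.86. The ligand Dll1 stood at -5.05 in MEF, -4.21 at 1 dpi, -3.80 at 3 dpi, -1.18 at 5 dpi, -1.38 at 7 dpi and -1.0 in neurons, 14.6-fold above MEF at 5 dpi. Dll3, a Delta protein that acts within the cell, was 13.1-fold higher, and its other probe gave 6.85 on the log2 scale. For both ligands the step from 3 to 5 dpi, 6.15-fold and 9.39-fold, lay within a scan. Of the target genes, Heyl was 13.6-fold higher and Hey1 2.37-fold higher, the latter under 2-fold after quantile normalization or median centring, while Hes1 was at 1.82-fold and Hes5 at 1.35-fold. The receptor gene Notch1 was 3.77-fold higher on its brighter probe and higher by 0.75 on the log2 scale on the other. Lfng, the glycosyltransferase that modifies Notch, was 9.93-fold lower (levels -2.24 and -5.55), and the Delta-like protein Dlk1 was 4.58-fold lower. Among progenitor and glial genes, Fabp7, the fatty acid binding protein of radial glia, was 34.0-fold higher, with levels of -5.24 in MEF, -2.95 at 3 dpi, -0.15 at 5 dpi, -2.30 at 7 dpi and 5.19 in neurons. Sox2 was not well above background at 5 dpi, and its bound of at least 2.35-fold lower lay near the level of the control probes. With normexp correction its difference was under 2-fold.

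The repressor REST silences neuronal genes in other cells, and Ptbp1 blocks neuronal splicing. Of 17 genes of this barrier list 0 were higher and 1, the phosphatase Ctdsp2 at 2.42-fold, was lower. As a mean over its probes, however, Ctdsp2 was within 2-fold, at -0.77 on the log2 scale. Rest itself was at 1.37-fold of MEF and Ptbp1 at 0.952-fold. Of 20 BAF chromatin remodelling subunits 2 were higher and 0 lower, and of the 18 clear ones 0 passed 2-fold in either direction. The neuronal subunit Actl6b, which replaces Actl6a in neurons, had levels of -6.06 in MEF and -4.81 at 5 dpi, and its 2.38-fold difference fell under 2-fold with 3 of the other settings. Of 17 RNA-binding proteins of neurons, 7 were higher and 0 lower, with a median of 0.73. Elavl3 passed from background on MEF, 1 dpi and 3 dpi to -3.25 at 5 dpi, 0.54 at 7 dpi and 2.48 in neurons, at least 10.2-fold above MEF with an array error of 1.45. The splicing factors Rbfox1 and Nova1 were 8.72-fold and 6.12-fold higher, and Srrm4, which controls neuronal microexons, was 2.85-fold higher.

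Synaptic vesicle and active zone genes had 12 of 30 members higher and 0 lower, with a median of 0.71. Syt1, the calcium sensor of vesicle fusion, was at least 21.2-fold higher, with a level of -2.08 at 5 dpi, -0.19 at 7 dpi and 3.00 in neurons. Sv2b, a vesicle glycoprotein, was 17.8-fold higher, and Doc2b, a calcium sensor of asynchronous release, was 16.1-fold higher, with a level of -1.04 at 5 dpi against -0.78 in neurons. Snap25, a membrane fusion protein, was 2.18-fold higher (under 2-fold with median centring) but reached its highest treated level at 3 dpi, 3.50 against 2.16 at 5 dpi. The vesicle proteins Syn1 and Syp, synapsin and synaptophysin, were at 0.955-fold and 1.24-fold of MEF.

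Voltage-gated channels had 8 of 32 members higher and 3 lower, with a median of 0.30 that was -0.02 after quantile normalization and -0.11 after median centring. Only 3 of 21 clear members were higher and 2 lower, shares close to those of all clear genes. Kcne1l, an auxiliary potassium channel subunit, was 142.2-fold higher on its brighter probe, with levels of -5.54 in MEF, -3.78 at 3 dpi, 1.61 at 5 dpi, 0.61 at 7 dpi and 2.21 in neurons. Its other probe gave 2.06 on the log2 scale. The hERG channel Kcnh2 was 8.90-fold higher and the T-type calcium channel Cacna1h 8.28-fold higher, whose other probe gave 0.75. Of the transmitter genes, 9 of 19 were higher and 2 lower, but only 3 of 11 clear members were higher. Slc5a7, the choline transporter of cholinergic terminals, was 5.01-fold higher. The vesicular glutamate transporter Slc17a6, at -4.36, was near the level of the control probes. Gad1, which makes GABA, was not well above background in MEF or at 5 dpi, and stood at -1.69 at 7 dpi and 1.63 in neurons. Of 29 receptor genes 8 were higher and 1 lower. Chrna4, a nicotinic receptor subunit, was not well above background through 3 dpi and stood at -2.50 at 5 dpi, at least 17.2-fold above MEF. Gabbr2 was 3.55-fold higher on its brighter probe, with 0.31 on the log2 scale for the other, and the kainate receptor Grik1 was 4.95-fold lower.

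Of 35 axon guidance genes, 7 were higher and 5 lower, and of 34 clear members 6 and 5, shares not far from those of all genes. The netrin receptor Unc5b was 8.65-fold higher, with levels of 0.72 in MEF, 2.68 at 1 dpi, 3.27 at 3 dpi, 3.83 at 5 dpi and 1.76 at 7 dpi. Epha2, an ephrin receptor, was 6.82-fold higher. Lower were the semaphorin receptors Nrp1 and Nrp2, at 2.82-fold and 3.05-fold, and the ligand Sema3c, at 3.10-fold. Of 23 neurotrophic genes, 8 were higher and 5 lower. Lif, a cytokine of the interleukin 6 family that acts on neurons, was 5.11-fold higher, Bdnf 2.53-fold higher and Gdnf 2.51-fold higher. Both came under 2-fold with median centring, and Gdnf also with normexp correction and quantile normalization. Ntrk3, the receptor of neurotrophin 3, was 5.87-fold lower.

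Genes that respond to cyclic AMP or to immediate stimulation were examined because forskolin was in the medium. Of 32, 12 were higher and 1 lower, with a median of 0.74, against -0.44 at 1 dpi, 0.03 at 3 dpi and -0.19 at 7 dpi, all relative to the same MEF array. Stc1, the hormone stanniocalcin, was at least 21.6-fold higher, with levels of -5.69 at 1 dpi, -4.53 at 3 dpi, -1.96 at 5 dpi and -3.85 at 7 dpi. Inhba, a subunit of activin, was 12.5-fold higher, and Fosl1, a Fos family factor, 10.6-fold. The coactivator Ppargc1a was 7.61-fold higher on its brighter probe and higher by 0.77 on the log2 scale on the other. The kinase Sik1, an early target of CREB, was 2.26-fold higher (under 2-fold with median centring), with -1.41 at 3 dpi and 1.65 at 5 dpi. The best known early genes were closer to MEF, with Nr4a1 at 1.44-fold, Egr1 at 1.27-fold, Crem at 1.67-fold and Fos at 0.599-fold. Atf3, a stress-induced factor, was 3.07-fold lower.

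The palindromic CREB site TGACGTCA, which reads the same on both strands, was sought in the 250 bases before the start of each gene in RefSeq's promoter table (GRCm38.p6). It was present for 478 of 27025 genes (1.77%) and for 1 of the 24 members of the cyclic AMP list that had a promoter, Dusp1. The promoters of Chgb and Areg are shown because they hold it and because both genes passed from background in MEF to signal at 5 dpi, a choice made after their values were seen. Pcsk1 of the granin list also holds the site, 78 bases before its start, and is not shown. None of these genes is on the cyclic AMP list. Chgb encodes chromogranin B, and its probe had an outlier spot. It was at least 9.03-fold higher than in MEF, at -3.14, and stood at 2.79 at 7 dpi. Areg, the EGF receptor ligand amphiregulin, was at least 15.3-fold higher, with -3.93 at 3 dpi, -2.66 at 5 dpi and -5.48 at 7 dpi. The windows are chr2:132781392-132781641 for Chgb and chr5:91139349-91139598 for Areg, both on the plus strand, and capitals mark the site, whose first base lies 72 and 61 bases before the start. A match describes these letters and is not a measured binding site.
Chgb: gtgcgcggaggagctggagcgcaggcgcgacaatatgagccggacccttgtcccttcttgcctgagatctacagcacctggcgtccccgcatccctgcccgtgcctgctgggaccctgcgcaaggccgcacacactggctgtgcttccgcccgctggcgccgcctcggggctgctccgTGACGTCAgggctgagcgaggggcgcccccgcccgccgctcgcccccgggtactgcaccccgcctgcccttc
Areg: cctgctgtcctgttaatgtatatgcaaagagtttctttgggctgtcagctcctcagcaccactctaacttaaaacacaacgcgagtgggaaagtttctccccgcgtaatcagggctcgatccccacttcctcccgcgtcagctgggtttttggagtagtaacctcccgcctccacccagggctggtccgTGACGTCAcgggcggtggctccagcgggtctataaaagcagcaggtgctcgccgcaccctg

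The largest differences in the other direction belonged to genes of macrophages. Of 48 macrophage genes with a difference, 44 were lower and 1 higher, with a median of -5.56. Stab1, a scavenger receptor, fell from 4.30 in MEF to 0.63 at 1 dpi, -1.60 at 3 dpi and -5.89 at 5 dpi, was not well above background at 7 dpi, and stood at -4.54 in neurons. At 5 dpi it was 1164-fold lower than in MEF. C1qa and C1qc, chains of complement C1q, were 496.4-fold and 617.6-fold lower, and the mannose receptor Mrc1 was 567.4-fold lower. The summed linear level of the whole list was 651.6 in MEF, 203.1 at 1 dpi, 88.6 at 3 dpi, 27.1 at 5 dpi, 21.7 at 7 dpi and 35.6 in neurons. Thus 5 dpi lay below the neuron array on this sum, and its own share of the MEF sum was small.

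The defining macrophage genes had not all reached background at 5 dpi. Adgre1, the F4/80 antigen, went from 5.09 in MEF to -0.38, 44.5-fold lower, and Ptprc, the leukocyte antigen CD45, went from 0.16 to -3.57, 13.3-fold lower. Csf1r, the receptor of the macrophage growth factor, was 55.5-fold lower on its brightest probe, at 0.11 against -0.11 in neurons, and another of its probes gave 1.36 in the opposite direction. Of the 12 genes furthest lower, leaving out predicted genes, clones and genes with an outlier spot, 6 are on the macrophage list. They include Tbxas1, thromboxane synthase (291.3-fold lower), and Trem2, a lipid receptor (173.2-fold lower). The other 6 were Clec4a3 (at least 280.6-fold), Nxpe5 (275.6-fold), Pirb (239.5-fold), Pgap6 (215.2-fold), Cd200r1 (199.2-fold) and Cyth4 (171.9-fold). Pirb and Cd200r1 are inhibitory receptors of myeloid cells, and Clec4a3 is a C-type lectin of the same cells.

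**Figure D3:**
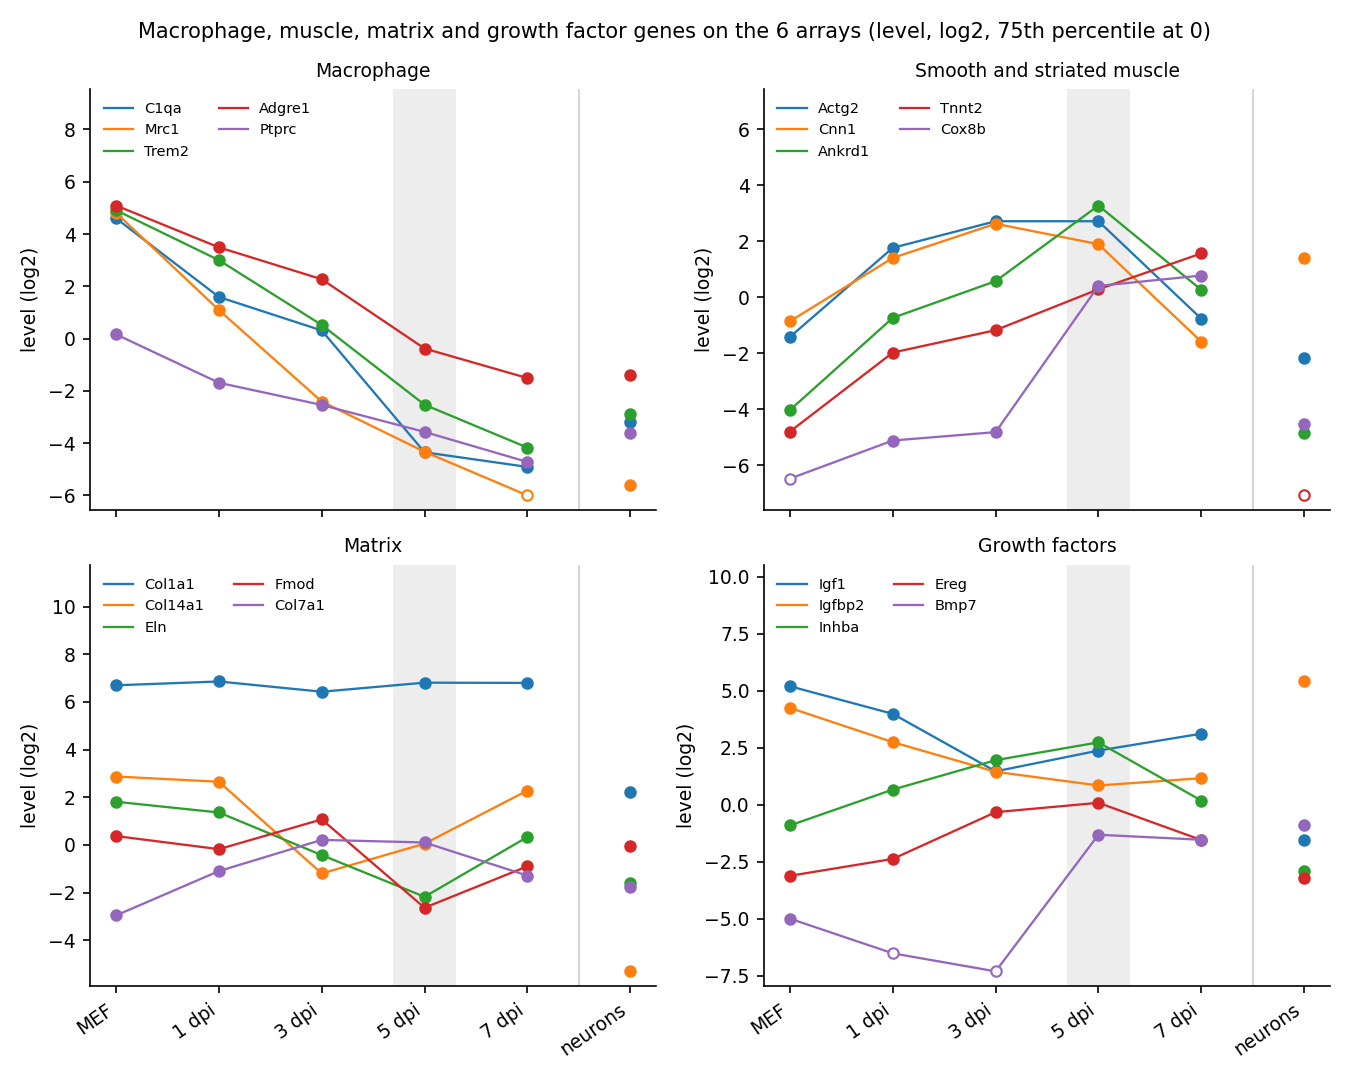
Levels (vertical axis, log2 with the 75th percentile of each array at 0) of macrophage, muscle, matrix and growth factor genes on the 6 arrays (horizontal axis), 1 array a group, with 5 dpi shaded and open circles where the probe was not well above background. The 5 macrophage genes plotted are lower on each treated array than on the one before, up to 5 dpi, Ankrd1 is highest at 5 dpi, and Col1a1 stays between 6.43 and 6.86 from MEF to 7 dpi.

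Chemokine ligands split into opposite groups, with 10 of 29 higher and 9 lower and a median of 0.37 (-0.03 after median centring). The neutrophil attractants that share the receptor Cxcr2 were higher. Cxcl1 stood at -1.45 in MEF, -1.87 at 1 dpi, 0.48 at 3 dpi, 3.37 at 5 dpi, 2.18 at 7 dpi and -0.06 in neurons, 28.3-fold above MEF. Cxcl5 went from 0.69 to 4.97, 19.5-fold higher, Cxcl2 was 5.81-fold higher and Ppbp 11.7-fold higher. Cxcl3 was not well above background in MEF or on the array labelled 7 dpi, and its level of -0.34 at 5 dpi was at least 75.2-fold above MEF. The monocyte attractants Ccl2 and Ccl7 were 18.1-fold and 5.53-fold higher, and the eosinophil attractant Ccl11 was 13.6-fold higher and 13-fold above 3 dpi. Cxcl10, a target of interferon, was 28.4-fold higher.

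The lower chemokines were Pf4, which went from 2.14 to -4.17 and was 79.5-fold lower, Ccl8 (61.7-fold), Ccl12 (39.4-fold), Ccl6 (25.4-fold), Ccl9 (17.6-fold), Ccl3 (7.65-fold), Cxcl16 (7.67-fold), Ccl5 (3.29-fold) and Ccl24, the last under 2-fold with normexp correction. Several of them are made by macrophages, whose list median was -5.56 in the same comparison, and the part of macrophages in these values was not tested. Cxcl12, a product of fibroblasts, was at 0.913-fold of MEF on its brightest probe and higher by 1.06 on the log2 scale on the other.

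**Figure D4:**
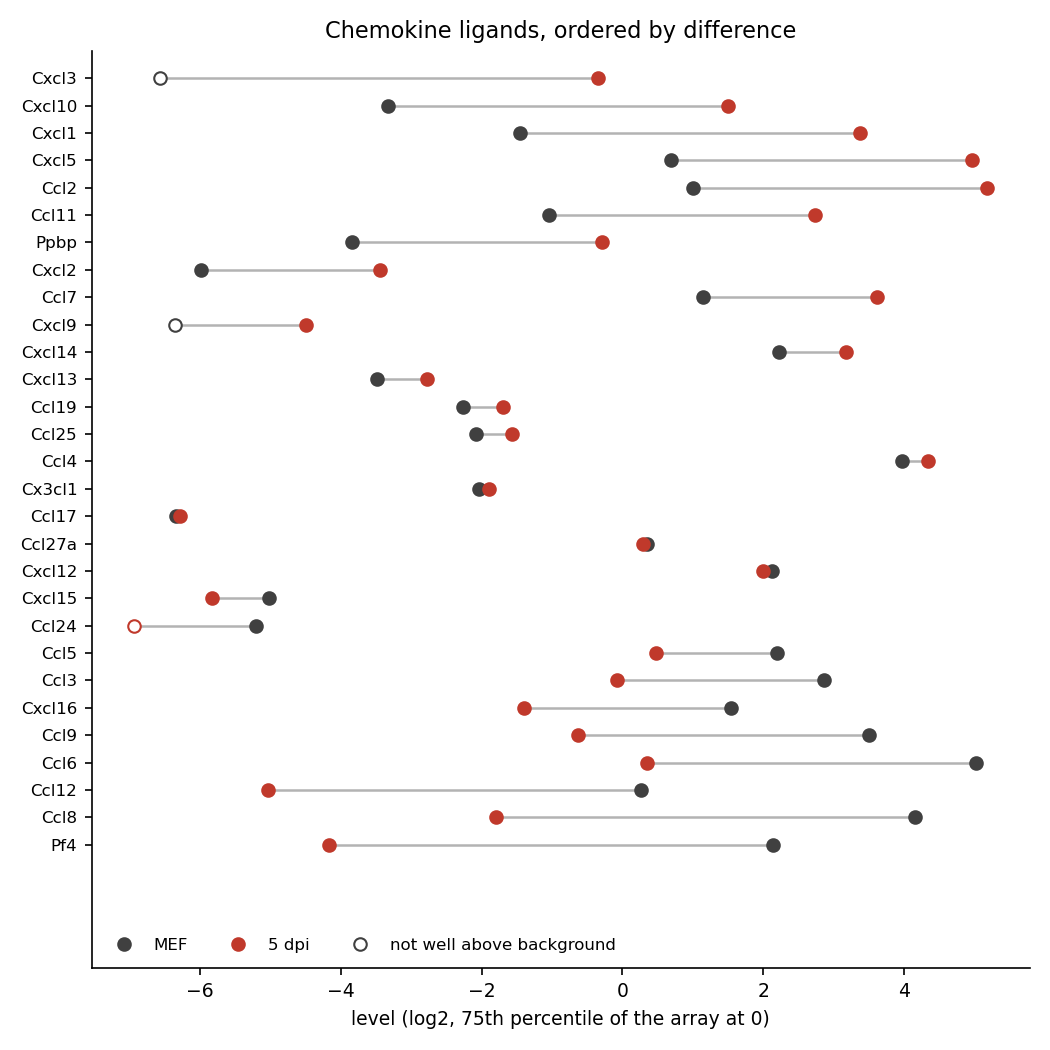
Levels (horizontal axis, log2 with the 75th percentile of each array at 0) of 29 chemokine ligands in MEF (black) and at 5 dpi (red), ordered by difference, with open circles where the probe was not well above background. The 10 genes at the top are at least 2-fold higher at 5 dpi, led by Cxcl3, and the 9 at the bottom are at least 2-fold lower, ending with Pf4.

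The kB site that NF-kB factors read, searched as GGG and TTTCC with any 2 bases between them on both strands of the same 250 bases, was found for 447 of 27025 genes (1.65%) and for 5 of 23 chemokine ligands with a promoter (21.7%), namely Cxcl1, Cxcl2, Cxcl3, Ccl9 and Ccl20. It was present in 3 of the 6 such ligands that were higher. Ccl9 was lower, so the letters did not go with a single direction. The windows of Cxcl1 (chr5:90890995-90891244), Cxcl2 (chr5:90903649-90903898) and Cxcl3 (chr5:90785851-90786100), all on the plus strand of GRCm38.p6, are shown because these genes of a shared region were higher together. The same region holds Pf4 (chr5:90772435-90773383), the chemokine ligand furthest lower, so its genes did not share a single direction. Capitals mark the matches, which begin 89 and 71 bases before the start in Cxcl1, 97 and 78 in Cxcl2 and 73 in Cxcl3.
Cxcl1: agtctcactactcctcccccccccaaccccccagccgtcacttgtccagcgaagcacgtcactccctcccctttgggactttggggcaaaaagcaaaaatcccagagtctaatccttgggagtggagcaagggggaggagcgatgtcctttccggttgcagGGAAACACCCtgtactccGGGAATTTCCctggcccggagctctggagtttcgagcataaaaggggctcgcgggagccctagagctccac
Cxcl2: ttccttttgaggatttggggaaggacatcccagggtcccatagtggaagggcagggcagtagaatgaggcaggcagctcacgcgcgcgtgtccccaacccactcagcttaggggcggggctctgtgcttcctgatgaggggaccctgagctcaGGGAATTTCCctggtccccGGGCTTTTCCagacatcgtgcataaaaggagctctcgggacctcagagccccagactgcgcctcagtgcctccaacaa
Cxcl3: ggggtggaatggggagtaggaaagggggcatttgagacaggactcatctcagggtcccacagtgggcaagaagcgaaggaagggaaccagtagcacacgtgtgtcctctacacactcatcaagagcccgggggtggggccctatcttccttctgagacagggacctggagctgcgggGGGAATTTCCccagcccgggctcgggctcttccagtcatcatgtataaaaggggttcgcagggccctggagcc

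Of 34 inflammatory cytokines and acute phase genes, 15 were higher and 2 lower, with a median of 0.60, and the same 15 and 2 were counted among 31 clear members. Il6, interleukin 6, stood at -0.97 in MEF, -2.14 at 1 dpi, -0.76 at 3 dpi, 3.10 at 5 dpi, 0.37 at 7 dpi and -5.50 in neurons. The 5 dpi level was the highest of the 6, 16.7-fold above MEF and 14.5-fold above 3 dpi. Ptgs2, the inducible prostaglandin synthase, was 26.1-fold higher and held nearly the same level at 3 dpi (1.19) as at 5 dpi (1.09). The neutrophil growth factor Csf3 was at least 12.3-fold higher and the siderophore-binding protein Lcn2 was 8.97-fold higher. Il1b, a product of activated macrophages, was 4.66-fold lower with an outlier spot, and Il33, an alarmin of stromal cells, was 3.65-fold lower.

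Interferon-stimulated genes had 19 of 37 members higher and 0 lower, with a median of 1.09, close to the medians at 1, 3 and 7 dpi (0.85, 0.93 and 0.92). Isg15, a ubiquitin-like protein, stood at 1.48 in MEF, 3.96 at 1 dpi, 4.31 at 3 dpi, 4.77 at 5 dpi, 4.19 at 7 dpi and 0.68 in neurons, so every treated array lay above both untreated samples. It was 9.78-fold above MEF at 5 dpi. Apol9b (50.4-fold), Ifi44 (29.3-fold), Oasl1 (24.5-fold) and the deubiquitinase Usp18 (11.2-fold) were higher too, with the transcription factor Irf7 (8.75-fold). Ifnb1, interferon beta itself, was not well above background in MEF or at 5 dpi. Adenoviral supernatants were given to every treated sample, so virus and Tet3 cannot be told apart here. Of the antigen presentation genes, the class I chain H2-K1 and B2m were at 1.23-fold and 1.30-fold of MEF. The class II chain H2-Ab1 was 5.58-fold higher, and H2-DMb1, which loads class II molecules, was 13.2-fold lower.

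The interferon response element was searched as 2 copies of GAAA with any 2 bases between them on both strands of the 250 bases before the start. It was found for 936 of 27025 genes (3.46%) and for 14 of 30 interferon-stimulated genes with a promoter (46.7%), and in 8 of the 15 that were higher at 5 dpi. The members were picked as interferon-stimulated genes, so the share is a property of the list and not a result about the differences at 5 dpi. Isg15 (chr4:156200819-156201068, minus strand) and Ifit1 (chr19:34640639-34640888, plus strand) are shown as members that were 9.78-fold and 8.67-fold higher. Capitals mark the matches, some of which overlap in Isg15, and the sequences run along the gene, as RefSeq gives them for GRCm38.p6.
Isg15: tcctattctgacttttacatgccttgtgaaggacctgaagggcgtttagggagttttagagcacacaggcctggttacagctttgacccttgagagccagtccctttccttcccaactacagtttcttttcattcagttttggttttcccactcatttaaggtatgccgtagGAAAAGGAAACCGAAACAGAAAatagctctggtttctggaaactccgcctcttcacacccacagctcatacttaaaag
Ifit1: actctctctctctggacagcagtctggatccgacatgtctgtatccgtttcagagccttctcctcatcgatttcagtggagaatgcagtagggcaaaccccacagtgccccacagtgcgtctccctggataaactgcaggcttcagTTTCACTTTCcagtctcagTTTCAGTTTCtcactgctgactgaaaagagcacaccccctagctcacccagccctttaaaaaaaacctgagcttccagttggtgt

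Targets of p53 and inhibitors of cyclin-dependent kinases had 19 of 34 members higher and 2 lower, with a median of 1.26. Cdkn1a, the p21 inhibitor, was 4.88-fold higher, with levels of 1.54 in MEF, 3.16 at 1 dpi, 3.66 at 3 dpi, 3.83 at 5 dpi, 2.66 at 7 dpi and 2.08 in neurons. Perp, a p53 target of desmosomes, was 12.6-fold higher, Pmaip1, which encodes the death protein Noxa, 5.38-fold, Cdkn2a 4.13-fold, and Mdm2, the p53 ubiquitin ligase, 2.83-fold. Trp53 was at 1.98-fold of MEF. Sesn1, a sestrin that p53 can induce, was 7.36-fold lower.

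Mitotic genes were higher at the same time. Of 31, 27 passed 2-fold upward and 0 downward. Their differences ranged from 0.51 to 2.29 around a median of 1.69, so the whole list lay above 0. Ube2c, a ubiquitin-conjugating enzyme of mitotic exit, was 4.88-fold higher, with levels of -0.43 in MEF, 0.57 at 1 dpi, 1.92 at 3 dpi, 1.86 at 5 dpi, 0.82 at 7 dpi and -0.66 in neurons. The kinesin Cenpe was 4.85-fold higher, Prc1, which bundles spindle microtubules, 4.29-fold, Top2a 4.23-fold and Mki67 2.50-fold, the last under 2-fold with median centring. Of 32 DNA replication genes 4 were higher and 0 lower, with a median of 0.41. Rrm2, a subunit of ribonucleotide reductase, was 3.91-fold higher and Mcm10 2.7-fold higher, while Mcm2 and Pcna, parts of the helicase and of the polymerase clamp, were at 0.787-fold and 0.533-fold of MEF.

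Skeletal and cardiac muscle genes were higher at 5 dpi in large number. Of 51, 27 were higher and 1 lower, with a median of 1.35 (0.72 after quantile normalization), and 24 of 37 clear members were higher. The other arrays shared this, with median differences from MEF of 0.89 at 1 dpi, 1.08 at 3 dpi, 1.67 at 7 dpi and 1.00 in neurons. Ankrd1, a sarcomere-associated repeat protein that also responds to YAP, stood at -4.03 in MEF, -0.74 at 1 dpi, 0.57 at 3 dpi, 3.27 at 5 dpi, 0.26 at 7 dpi and -4.85 in neurons. That was 158.1-fold above MEF and 6.49-fold above 3 dpi. Cox8b, the muscle and brown fat form of a cytochrome oxidase subunit, was at least 117.7-fold higher, with -4.82 at 3 dpi, 0.40 at 5 dpi and 0.77 at 7 dpi. Asb5, an ankyrin repeat protein of muscle, was 70.7-fold above MEF and returned to -3.30 at 7 dpi from 0.50 at 5 dpi. The cardiac troponin T gene Tnnt2 was 33.6-fold higher, cardiac actin Actc1 20.1-fold, troponin C Tnnc1 7.99-fold and embryonic myosin Myh3 9.21-fold.

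Among factors that direct skeletal muscle fate, Myod1 was at 1.94-fold, and Myog was 2.50-fold higher at levels of -5.00 and -3.67 but under 2-fold with 3 other settings. Smooth muscle and myofibroblast genes had 13 of 21 members higher and 0 lower, with a median of 1.23. The enteric actin Actg2 stood at -1.42 in MEF, 1.76 at 1 dpi, 2.71 at 3 dpi, 2.71 at 5 dpi, -0.77 at 7 dpi and -2.17 in neurons, 17.5-fold above MEF and 11.2-fold above the array labelled 7 dpi. Lmod1, a leiomodin, was 10.5-fold higher, calponin Cnn1 6.70-fold, transgelin Tagln 2.18-fold and Acta2, with an outlier spot, 2.87-fold. Tagln was under 2-fold with median centring. Of 20 YAP and TAZ factors and targets, 4 were higher and 0 lower, a share higher close to the 17.9% of all genes. Among the higher ones were Ankrd1 and the matricellular protein Ccn2 (2.89-fold), and Yap1 was at 1.18-fold.

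The main collagens were at the level of MEF. Col1a1 stood at 6.70 in MEF, 6.86 at 1 dpi, 6.43 at 3 dpi, 6.81 at 5 dpi, 6.80 at 7 dpi and 2.21 in neurons, and at 5 dpi it was 1.08-fold of MEF. Col1a2 was at 0.932-fold and Col3a1 at 1.11-fold. Of 36 collagen genes 9 were higher and 3 lower, with a median of 0.13 that was -0.05 after quantile normalization and -0.28 after median centring. Col7a1, the anchoring fibril collagen, was 8.32-fold higher, and Col18a1, a basement membrane collagen, 3.26-fold higher. Col14a1, which associates with fibrils, was 7.10-fold lower, and Col11a1, a cartilage fibril chain, 3.37-fold lower. Col8a2 was 11.97-fold lower on its brighter probe, with 0.01 on the log2 scale on the other.

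Of 33 elastic fibre and small proteoglycan genes, 2 were higher, 11 were lower and 20 were within 2-fold, with a median of -0.51, against -0.61 at 3 dpi and -0.11 at 7 dpi. Eln, elastin, stood at 1.81 in MEF, 1.36 at 1 dpi, -0.43 at 3 dpi, -2.18 at 5 dpi, 0.33 at 7 dpi and -1.59 in neurons. The 5 dpi level was the lowest of the 6 and 15.9-fold below MEF. Fmod, the collagen-binding fibromodulin, was 8.05-fold lower and at 0.0765-fold of 3 dpi, and the small proteoglycan Podn was 5.32-fold lower. Fbn2, Mfap2 and Mfap4, proteins of microfibrils, were 3.52-fold, 4.11-fold and 3.32-fold lower, and Lox, which cross-links elastin and collagen, was 2.42-fold lower. The abundant matrix genes Fbn1, Dcn and Lum were within 2-fold of MEF (0.651-fold, 1.21-fold and 0.639-fold).

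Among 34 matrix proteases and inhibitors, 13 were higher and 3 lower, with a median of 0.48. The aggrecanase Adamts4 was 9.06-fold higher and Plau, urokinase, 3.64-fold higher. Mmp9, a gelatinase of macrophages and other cells, was 22.5-fold lower, and Timp2 was 2.7-fold lower on its brighter probe. Of 26 fibroblast identity genes, 3 were higher and 4 lower, with a median of 0.00, or -0.40 after median centring. Tnc, a matrix protein of wounds, was 11.7-fold higher, while the stem cell antigen Cd34 and the matrix protein Dpt were 5.72-fold and 4.06-fold lower. The mesenchymal factors Twist1 and Prrx1 were at 0.741-fold and 1.23-fold. Scx, a tendon factor, was 5.78-fold higher, whereas Meox1, a somite factor, was 7.17-fold lower than in MEF and at 0.0568-fold of 3 dpi.

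In the TGF-beta and BMP list 14 of 42 genes were higher, 6 were lower and 22 were within 2-fold, with a median of 0.47 that was 0.07 after median centring. The ligand Bmp7 was not well above background at 1 or 3 dpi and stood at -5.00 in MEF, -1.32 at 5 dpi, -1.54 at 7 dpi and -0.90 in neurons, 12.9-fold above MEF at 5 dpi. The BMP antagonists Nog and Grem1 were 6.38-fold and 6.34-fold higher, and the BMP target genes Id1 and Id3 were 5.34-fold and 3.09-fold higher, each with its highest level at 5 dpi (3.52 and 4.29). Bmp2 was 4.53-fold lower and Tgfb1, which macrophages also make, was 4.02-fold lower. The Wnt list had 11 of 43 higher and 9 lower, with a median of -0.08 that was 0.06 with normexp correction. The ligand Wnt10a was 23.2-fold higher and the secreted antagonists Frzb and Dkk1 were 14.2-fold and at least 8.49-fold higher. The agonist Rspo1 and its receptor Lgr5 were 5.65-fold and 4.23-fold lower.

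EGF receptor ligands were higher alongside Areg. Ereg, epiregulin, was 9.18-fold higher and Hbegf 3.61-fold higher, with 12 of 34 EGF and FGF pathway genes higher and 4 lower and a median of 0.58. Fgf18 was 7.49-fold lower. Of 30 imprinted and insulin-like growth factor genes, 2 were higher, 11 were lower and 17 were within 2-fold, with a median of -0.44. Igf1 stood at 5.19 in MEF, 3.98 at 1 dpi, 1.46 at 3 dpi, 2.37 at 5 dpi, 3.11 at 7 dpi and -1.54 in neurons, 7.06-fold below MEF at 5 dpi. The binding proteins Igfbp2 and Igfbp4 were 10.6-fold and 5.62-fold lower, and Igf2 was 3.15-fold lower. Peg10, an imprinted gene of retrotransposon origin, was 16.8-fold higher, with -3.48 at 3 dpi and -0.82 at 5 dpi. Igf1 is made by macrophages as well as fibroblasts, and their part in its difference was not tested.

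Of 33 genes of cholesterol synthesis, uptake and efflux, 1 was higher, 7 were lower and 25 were within 2-fold, with a median of -0.55. The members named here carry or export lipid. Apoe, the carrier of macrophages and glia, went from 6.96 in MEF to 1.77 at 3 dpi and 1.73 at 5 dpi, 37.5-fold lower, with an outlier spot. The efflux pump Abca1 was 3.21-fold lower. Glycolysis and hypoxia genes had 13 of 37 higher and 1 lower, with a median of 0.70. Egln3, an oxygen-sensing hydroxylase that hypoxia induces, was 45.1-fold higher (levels -4.92 in MEF, -0.90 at 3 dpi, 0.57 at 5 dpi and -2.06 at 7 dpi), Ddit4 5.16-fold and the glucose transporter Slc2a1 3.36-fold. Hif1a was 2.65-fold higher.

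Genes that every cell uses gave a reference for these differences. All 50 cytosolic ribosomal protein genes were within 2-fold, between -0.30 and 0.56, with a median of 0.01 (-0.40 after median centring). Of 49 oxidative phosphorylation subunits, 1 was higher, the muscle form Cox8b, and 0 were lower. Of 32 genes of the unfolded protein and amino acid stress responses 7 were higher and 1 lower. The share higher was not far from the 17.9% of all genes, and the share lower was under their 8.21%. The median was 0.32, and -0.08 after median centring. Among the higher ones were the chaperone genes Sdf2l1 (3.79-fold), Hyou1 (3.28-fold) and Pdia4 (3.26-fold), and Ddit3 was 2.21-fold higher (under 2-fold with median centring). Hox genes, which mark position along the body axis, had 13 of 38 members higher and 0 lower, with a median of 0.78. The posterior genes Hoxc13 and Hoxd13 were 13.8-fold and 3.25-fold higher.

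**Figure D5:**
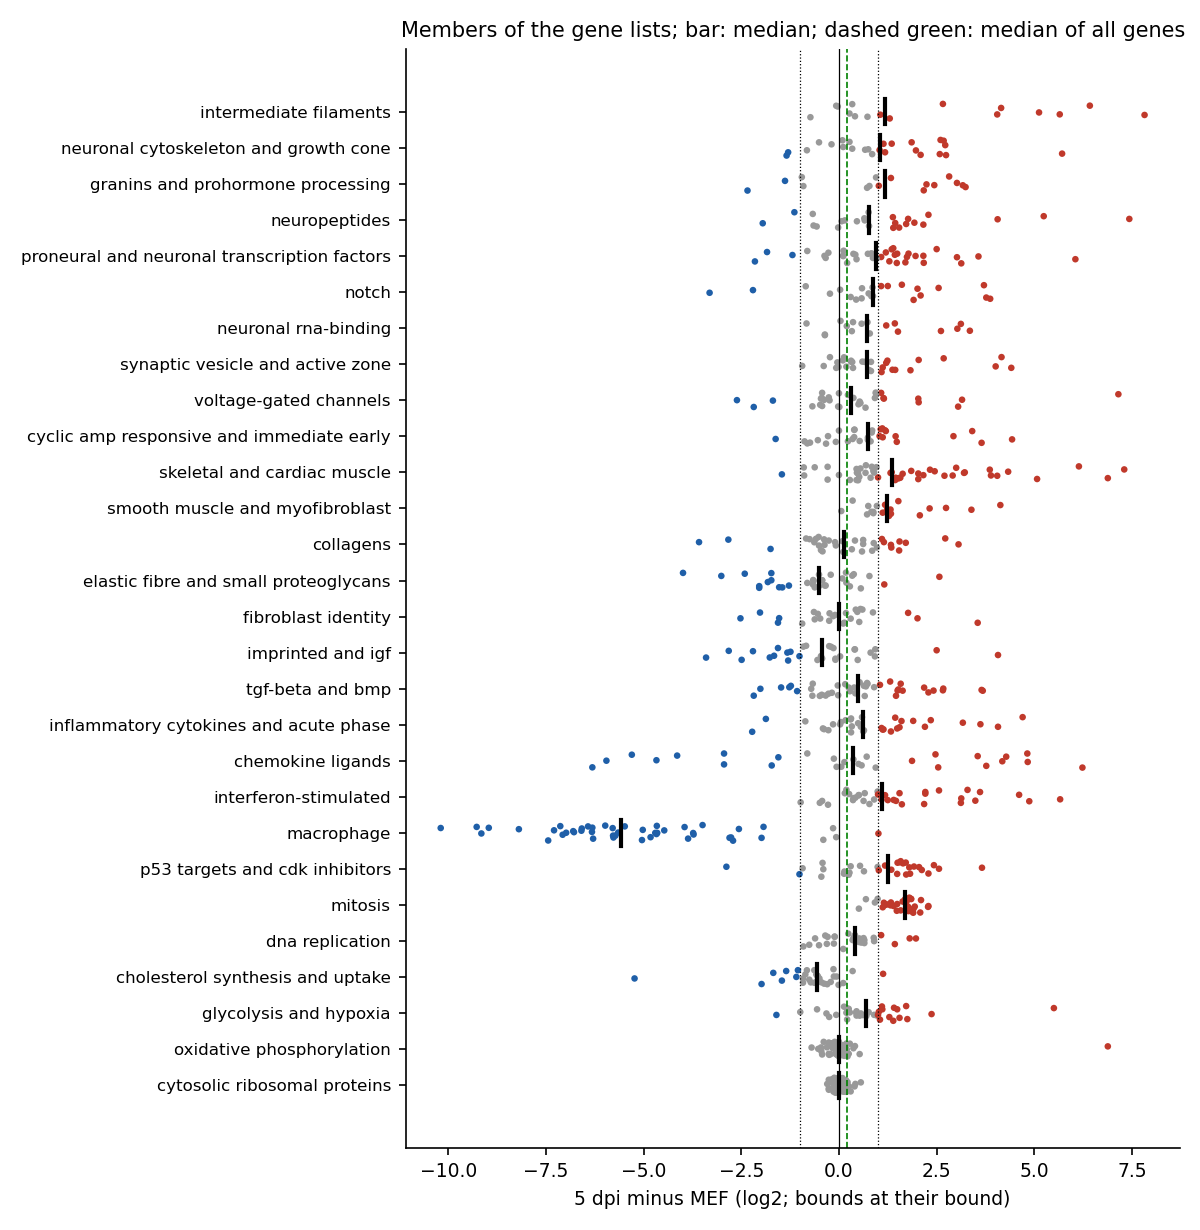
Log2 difference of 5 dpi from MEF (horizontal axis) for each member of 28 gene lists (vertical axis), with red for members at least 2-fold higher, blue for at least 2-fold lower, grey for others, and members with a bound drawn at it. The black bars are list medians, from -5.56 for macrophage genes to 1.69 for mitosis, and the dashed green line is the median of all genes, 0.20.

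Of the 12 genes furthest higher, 3 are on no list. R3hdml, a putative secreted protease inhibitor, stood at -6.24 in MEF, -4.39 at 3 dpi, 0.74 at 5 dpi and -1.94 at 7 dpi, 126.3-fold above MEF. Pla1a, a phosphatidylserine-specific phospholipase, was 55.3-fold higher, with -1.47 at 3 dpi and 1.34 at 5 dpi. Crct1, a gene of the epidermal differentiation region, was at least 63.2-fold higher, and its levels at 3 and 5 dpi, -0.67 and -0.62, were alike. The remaining 9 were Prph, Cck, Ankrd1, Kcne1l, Cox8b, Nefh, Cxcl3, Asb5 and Insm1, 3 of them on the muscle list.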

How the data were processed

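RNA of each of the 6 samples was hybridised to 1 single-colour Agilent mouse array and read with Agilent's Feature Extraction software, version 11.0.1.1, per the file headers. The authors deposited scanner intensity values per spot and a table of log2 values with the 75th percentile of each array at 0. The difference is the 5 dpi column minus the MEF column of that log2 table, as deposited. Log2 scanner intensity scaled the same way gave nearly the same values. Probes were kept by the background flag. The 16 probes whose spots were all marked as outliers on 1 of the 2 arrays were left out, while a probe with an unmarked spot was kept and is named as having an outlier spot. By accession, 27228 probes (69.1%) were named through RefSeq. A gene with several probes (5474 genes) was represented by the one with the highest mean level. A bound sets the brighter array against the higher of the dim spot and the lowest signal well above background. A kept probe whose detected signal did not exceed this was given no difference.

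With 1 array a group there was no test, and the threshold of 2-fold describes size. The calling step was tested on simulated data, with changes only in probes detected in MEF and no shift between scans. Bounds and dim probes were therefore not tested. Alternatives were scanner signals, normexp (limma 3.58.1, R 4.3.3), quantile and median scaling, background and level filters, probe means and a threshold of 4-fold. Genes named are the Tet genes, the 12 furthest in each direction, a selection of list members past 2-fold and up to 4 defining members a list within it. Not every member past 2-fold is named, and not every list is described. The members and the 54 lists were chosen with earlier results of these data known. Tables were made with pandas 2.3.3.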

Additional observations from a re-analysis of the deposited data

Results flagged for a closer look

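The median of the list of cholesterol synthesis, uptake and efflux lay on opposite sides of 0 at neighbouring times. As a log2 difference from MEF it was 0.66 at 3 dpi and -0.55 at 5 dpi, in the same scan. Of 33 members, 12 were at least 2-fold higher and 4 lower at 3 dpi, and 1 was higher and 7 lower at 5 dpi. The difference between these times was not tested, since each was 1 array.

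Of 54 control probes of the array, 17 were at least 2-fold higher at 5 dpi than in MEF and 1 was lower, at median levels of -6.29 and -8.11. Of 9452 probes with no gene symbol, 2066 (21.9%) were at least 2-fold higher and 327 (3.46%) lower. They have no name here and enter no list.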

How the results depend on the processing

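Against 3283 genes higher and 1505 lower, the number higher was 1699 with normexp correction, 1606 after quantile normalization and 2126 at a level of -4 or more. It was 6309 when all 33463 kept probes with a difference were counted. With median centring 1764 were higher and 2640 lower, among brighter genes (mean level of -1 or more) 547 and 761, and at 4-fold 731 and 591. The settings by level of -4 and by all kept probes were chosen after seeing the data. All 219 named genes past 2-fold kept their direction under every setting run, and 18 of them came under 2-fold with at least 1 setting. For some settings the direction was fixed in advance. Filters by background on both arrays or by level only drop genes, and a dropped gene was not counted. Median centring moves all measured differences by the same amount, too small to reverse one past 2-fold. Called genes that are not named were not counted here. Among brighter genes the median of the granin list was -0.93, and that of the transmitter receptors was -0.50 against 0.71. That of the voltage-gated channels was -0.02 after quantile normalization and -0.11 with median centring, and that of the collagens -0.05, -0.28 and, among brighter genes, -0.37. The Wnt median was 0.06 with normexp and 0.19 as a mean over members, and the chemokine median was -0.03 with median centring. For ribosomal proteins it was -0.02 with normexp, -0.04 with quantile normalization and -0.40 with median centring. The cause of these changes was not tested. No paired analysis was possible because each group held 1 array. That number limits the precision, and differences below a level of -4 lie among those of the control probes.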
